A study of Mus musculus with 4 samples.

Results

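The T-box factors are 10 genes of the mouse genome, Tbx1, Tbx2, Tbx3, Tbx4, Tbx5, Tbx6, Tbx15, Tbx18, Tbx20 and Tbx21, taken by name from 21670 protein-coding genes on chromosomes 1 to 19 and X. Trimethylation of lysine 4 of histone H3 (H3K4me3) was measured by chromatin immunoprecipitation and sequencing in whole heart tissue of adult female mice aged 2 months. The strain was B6CASTF1/J, the F1 hybrid of C57BL/6J and CAST/EiJ, with no treatment in any sample. Pool G and pool H, each of 2 heart biosamples, gave 2 technical replicate libraries each, 4 libraries in all. The labels name the same donor record for both pools and do not say that the pools held separate animals, so a difference between pools may be technical. The peaks came as 4 lists: pool G's own, pool H's own and 2 lists of both pools. Of the latter, 1 is named replicated peaks (the replicated list) and 1 was checked on pseudoreplicates. There was no other tissue, genotype or stage, so each member is set beside all protein-coding genes of the same lists and no test was run.

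T-box factors are transcription factors that share a DNA-binding region named after the T gene (brachyury). Some activate and some repress, and in the heart activators such as Tbx5 and repressors such as Tbx2 and Tbx3 are known to compete for targets, so that working muscle and the conduction system take on different gene programmes. H3K4me3 marks the starts of genes that are active or poised for transcription, and wide H3K4me3 domains have been described at genes that set the identity of a cell type. The heart holds cardiomyocytes, fibroblasts, endothelial cells, epicardium and small amounts of conduction tissue. In such bulk tissue, fewer cells that carry the mark and less mark per cell cannot be told apart. The members were ordered by role: Tbx5 and Tbx20 in working myocardium; Tbx2, Tbx3 and Tbx18 in the conduction system and sinus venosus; Tbx1 in the pharynx and outflow tract; and Tbx4, Tbx6, Tbx15 and Tbx21 mainly outside the heart.

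RefSeq promoter sequences (build GRCm38.p6, the C57BL/6J reference) matched 6 of the 10 members; Tbx2, Tbx3, Tbx5 and Tbx15 had no match. The 5 stretches below are the 250 bases before a start, 5′ to 3′ on the gene's strand, with each CG dinucleotide in capitals. They are shown because they span the range of H3K4me3 found at the members: a very wide domain (Tbx20), a domain of intermediate width (Tbx18), a narrow peak (Tbx21), no promoter peak (Tbx4), and a Tbx1 start that lay outside any peak.
Tbx20, chr9:24774304-24774553, minus strand: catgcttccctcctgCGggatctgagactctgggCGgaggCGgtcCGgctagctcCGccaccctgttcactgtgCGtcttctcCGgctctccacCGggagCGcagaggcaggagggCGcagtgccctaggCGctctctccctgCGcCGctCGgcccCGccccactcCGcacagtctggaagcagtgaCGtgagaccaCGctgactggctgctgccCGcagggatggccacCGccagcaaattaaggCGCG
Tbx18, chr9:87731261-87731510, minus strand: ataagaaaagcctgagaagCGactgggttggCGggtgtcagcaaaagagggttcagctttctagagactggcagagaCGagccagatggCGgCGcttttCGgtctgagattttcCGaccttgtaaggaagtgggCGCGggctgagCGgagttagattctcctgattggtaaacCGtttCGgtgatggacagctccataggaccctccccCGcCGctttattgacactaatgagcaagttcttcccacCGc
Tbx21, chr11:97115332-97115581, minus strand: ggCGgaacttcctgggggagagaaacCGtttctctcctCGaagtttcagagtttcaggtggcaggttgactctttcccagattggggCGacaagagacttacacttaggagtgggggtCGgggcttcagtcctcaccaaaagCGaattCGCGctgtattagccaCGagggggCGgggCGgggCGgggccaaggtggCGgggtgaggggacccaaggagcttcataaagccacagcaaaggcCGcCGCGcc
Tbx4, chr11:85896515-85896764, plus strand: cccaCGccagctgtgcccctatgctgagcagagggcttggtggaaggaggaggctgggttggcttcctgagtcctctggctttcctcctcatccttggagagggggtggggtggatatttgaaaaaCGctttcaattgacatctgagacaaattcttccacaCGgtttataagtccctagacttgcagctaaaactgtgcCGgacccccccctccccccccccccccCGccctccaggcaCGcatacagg
Tbx1, chr16:18588900-18589149, minus strand: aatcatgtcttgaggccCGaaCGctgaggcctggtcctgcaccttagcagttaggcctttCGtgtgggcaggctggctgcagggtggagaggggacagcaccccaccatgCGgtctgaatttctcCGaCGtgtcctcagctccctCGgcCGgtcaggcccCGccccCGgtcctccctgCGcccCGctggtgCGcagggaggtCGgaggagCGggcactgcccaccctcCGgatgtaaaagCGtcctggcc
The Tbx20 stretch held 22 CG dinucleotides, and all 250 of its bases lay under the replicated peak. The Tbx18 stretch held 15 and the Tbx21 stretch 16, and both also lay wholly under a peak. The Tbx4 stretch held 6 and no base of it was under a peak. It lies before the third Tbx4 start, 10343 bp past the first. The 2000 bp around that start held 22 CG dinucleotides, against 62 at the first start and 79 at the second. The Tbx1 stretch held 17 CG dinucleotides, more than Tbx18 or Tbx21, with 0 of its bases under a peak.

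H3K4me3 lay at the promoters of 9 of the 10 T-box factors in the adult heart, and the members differed mainly in how far the mark extended. A promoter was the 1000 bp on either side of any protein-coding transcript start, a gene was called occupied when a peak overlapped a promoter by at least 1 bp, and fold is the fold enrichment of the highest promoter peak as the authors deposited it. In the replicated list 9 of the 10 members were occupied, against 63.0% of protein-coding genes (13657 of 21670). The same 9 members were occupied in each of the other lists, where the share of all genes was 63.4% in the pseudoreplicated list of both pools, 63.4% in pool G and 61.3% in pool H. Tbx4 was the member without a promoter peak in all 4 lists. Fold was low for these occupied members: their median was 8.08, against 15.26 over all occupied genes, and each of the 9 lay under that median. Low fold was not particular to them. In the replicated list the median was 9.67 for occupied cardiomyocyte markers, 8.95 for conduction markers and 6.17 for fibroblast markers.

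Domain width was that of the widest domain at a promoter, with peaks at most 1000 bp apart joined. In the replicated list, widths in working myocardium (5539 to 7591 bp) overlapped those in the conduction system and sinus venosus (2642 to 6576 bp). The 9 occupied members had a median width of 2642 bp, against 1799 bp over all occupied genes. Tbx20, Tbx3 and Tbx5 were among the widest 5% of promoter domains (at least 4484 bp in the replicated list), against 5.0% of occupied genes by construction. The same 3 members passed that bound in each other list, in which it took 5.01% of occupied genes in the pseudoreplicated list, 5.01% in pool G and 5.0% in pool H. The 5 members of working myocardium and of the conduction system and sinus venosus were each at least 2642 bp wide, at percentile 78.7 of occupied genes. Tbx1 and the 3 occupied mainly non-cardiac members were each at most 1187 bp wide, at percentile 18.3. The ranges of these 2 sets did not overlap. Each set joins 2 roles, and the lists were chosen with earlier results of these data known. The split is thus a description and not a test of role. Tbx1 was put with the non-cardiac members here although its role is in the pharynx and outflow tract. The family genes Mga (2218 bp) and Eomes (2043 bp), outside both sets, lay between the ranges. Nor did the ranges of the 2 sets overlap in the pools' own lists. There the set of 5 members began at 2741 bp (pool G) and 2474 bp (pool H). The set with Tbx1 ended at 1224 bp and 1060 bp. With gaps of up to 3000 bp joined the ranges overlapped, since the domains of Tbx6 and Tbx1 then reached 5166 bp and 4445 bp while that of Tbx18 stayed at 2642 bp. With no gaps joined the sets nearly met, at 1217 bp for Tbx2 and 1187 bp for Tbx6. The clear separation thus depends on the 1000 bp join.

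**Figure D1:**
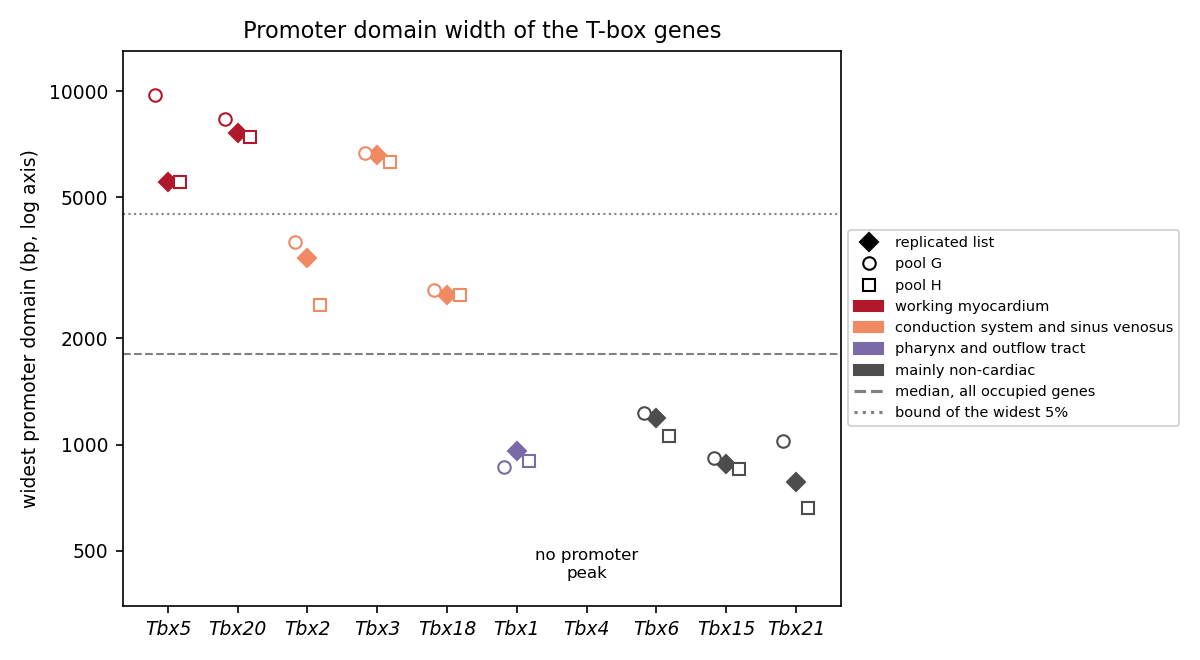
Widest promoter domain (bp, log axis) of each T-box gene in the replicated list (filled diamonds), pool G (open circles) and pool H (open squares), coloured by role; the dashed line is the median of all occupied genes in the replicated list (1799 bp) and the dotted line the bound of its widest 5% (4484 bp). Tbx5, Tbx20 and Tbx3 lie above the dotted line, Tbx2 and Tbx18 between the lines, and Tbx1, Tbx6, Tbx15 and Tbx21 below the dashed line.

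Tbx20, a factor that adult cardiomyocytes need to keep their function, had the widest domain of the members in the replicated list and the highest fold. Its domain measured 8333 bp in pool G, 7404 bp in pool H and 7591 bp in the replicated list, and its fold was 16.66, 11.57 and 13.67 in the same lists. The replicated domain was a single peak, at chr9:24767407-24774997 (mm10), with a −log10 q of 59.5. The gene lies on the minus strand at chr9:24718138-24774303, and the peak ran from 694 bp before the first start to 6896 bp past it, over 12.3% of the gene. Its width was at percentile 99.2 of occupied genes and its fold at percentile 39.9. The mark thus stood out by extent and not by height. The 3 annotated starts of Tbx20 all lay under it. Upstream, a peak of fold 6.43 (chr9:24776640-24778324) lay at the start of the lincRNA Gm29824, and another of fold 5.58 (chr9:24780911-24781505) lay at no annotated start. Here and below, a peak at a start is one that comes within 1000 bp of it.

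Tbx5, the factor mutated in Holt-Oram syndrome and an activator of chamber genes together with Nkx2-5 and Gata4, also had a very wide domain, with a lower fold. The domain measured 9770 bp in pool G, 5516 bp in pool H and 5539 bp in the replicated list. Its fold was 10.69 in pool G, 7.33 in pool H and 8.08 in the replicated list, at percentile 16.1 of occupied genes for fold and 97.4 for width. Tbx5 (chr5:119832668-119885219, plus strand) had 2 window peaks in the replicated list. The upstream one, at chr5:119830907-119833551 with a fold of 6.54, covered the first start and also the start of the lincRNA Gm43050. The downstream one, at chr5:119834828-119840366, covered the third start and had its summit in a coding exon. A gap of 1276 bp lay between them, just over the 1000 bp that was joined. In pool G an additional peak in that gap, of fold 1.9 and a −log10 q of 0.6, which does not reach a q of 0.05, joined them, and this made the domain of pool G wider. In pool H the same stretch was broken into 5 peaks, and the base of the first start was 115 bp from the nearest of them.

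Tbx3, a repressor needed for the sinus node and the atrioventricular conduction axis, was the third member among the widest 5%. Its domain was 6669 bp in pool G, 6300 bp in pool H and 6576 bp in the replicated list. Its fold was 13.75, 8.91 and 9.99 in these lists. Tbx3 (chr5:119670669-119684724, plus strand) had a single replicated peak, chr5:119669302-119675877, which took in all 3 of its starts and 37.1% of the gene. A start of the antisense transcript Tbx3os1 lay under the same peak or within 1000 bp of it, and ChIP does not tell the strands apart.

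Tbx2, a repressor of chamber genes in the atrioventricular canal, carried several separate peaks in place of a single long one. Its joined domain was 3739 bp in pool G, 2474 bp in pool H and 3374 bp in the replicated list, and its fold was 15.53, 10.6 and 13.19. The window of Tbx2 (chr11:85832551-85841948, plus strand) held 7 replicated peaks, the most of any member. The highest lay over the start, at chr11:85831739-85832955, and within 1000 bp of a start of the processed transcript 2610027K06Rik. The next, of fold 8.18, lay 534 bp past the start. The other 5 were at no start, among them a peak of fold 6.0 over the 3′ end of the gene (chr11:85841649-85842203) and 4 of fold 2.54 to 3.94. Tbx18, a factor of the sinus venosus and the epicardium, had a domain of 2741 bp in pool G, 2642 bp in pool H and 2642 bp in the replicated list, with folds of 10.68, 7.73 and 9.37. Its replicated peak, chr9:87729063-87731704, lay over the start of the gene (chr9:87702800-87731260, minus strand). It also lay within 1000 bp of a start of D030062O11Rik, a transcript that is yet to be experimentally examined. A peak of fold 4.03 near the far end of the upstream window lay at the start of Gm37374.

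**Figure D2:**
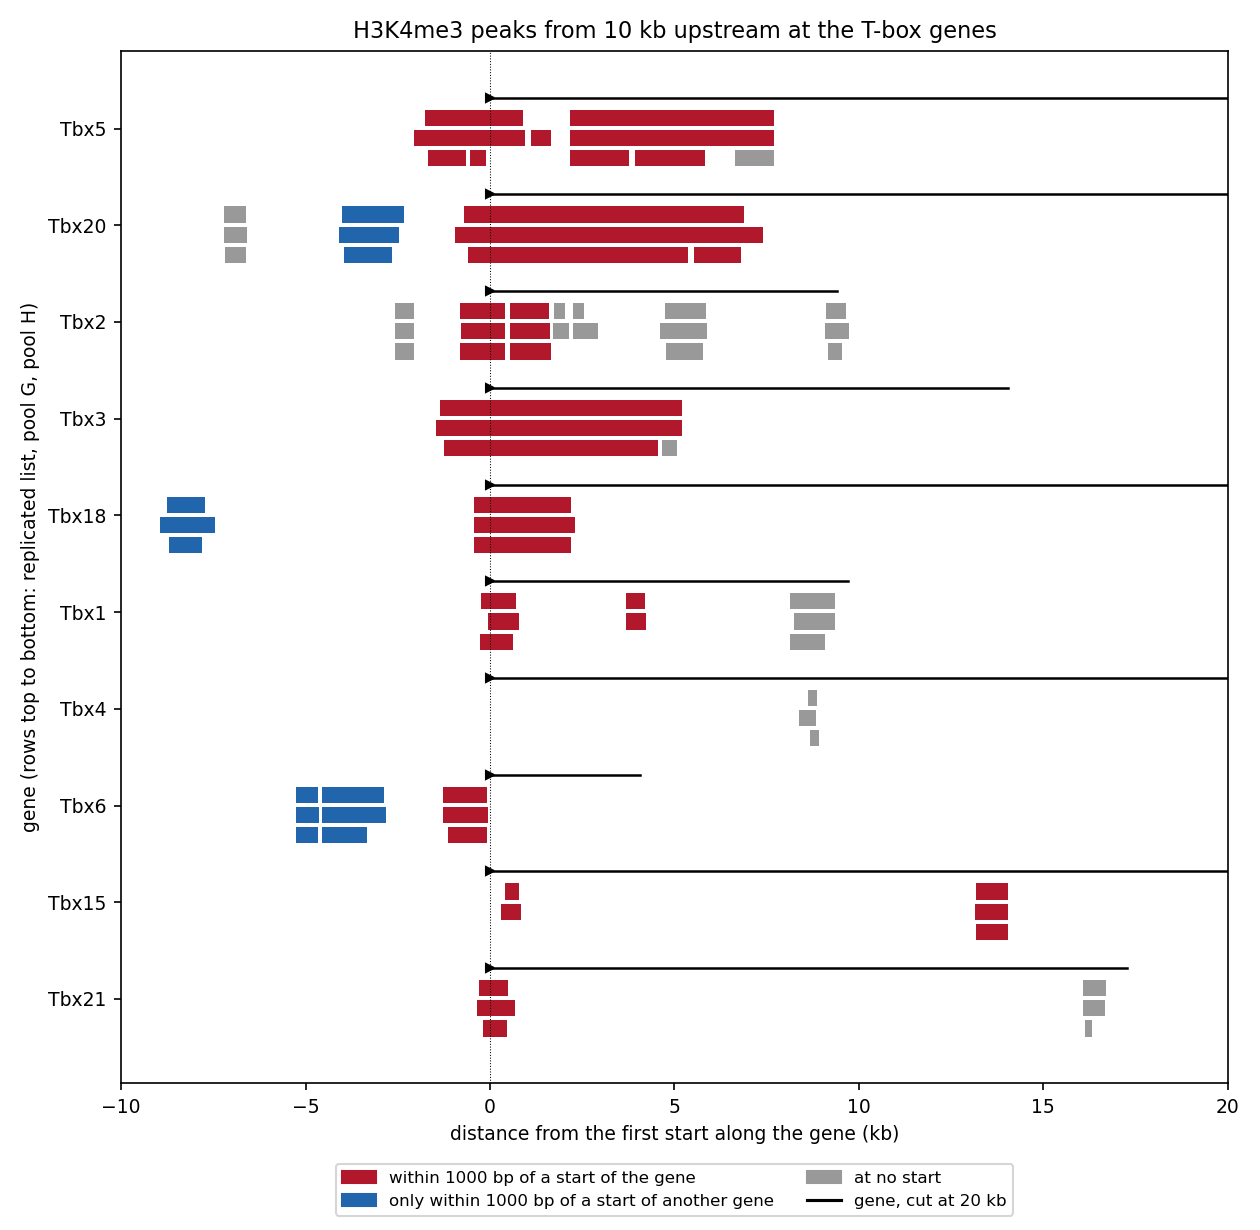
H3K4me3 peaks at the 10 T-box genes, drawn by distance from the first start along the gene (kb); the rows under each gene line are the replicated list, pool G and pool H, and colour gives whether a peak lies within 1000 bp of a start of the gene (red), only of a start of another gene (blue) or of no start (grey). Tbx20 and Tbx3 carry long peaks from before the first start into the gene, the long peak of Tbx5 begins 2160 bp past the first start in the replicated list, and Tbx4 has a single short peak at no start.

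Tbx1, a gene of the pharyngeal mesoderm that feeds the outflow tract and is lost in DiGeorge syndrome, was marked weakly and at some of its starts. Its widest promoter domain was 864 bp in pool G, 898 bp in pool H and 958 bp in the replicated list. Its fold was 6.83, 4.88 and 5.9, the lowest of the occupied members in the replicated list. On the minus strand at chr16:18580979-18590671, the first start was covered, and the second, 1863 bp further on, had no peak within 1000 bp in any list. The third start had a peak of fold 4.52 in the replicated list and 5.87 in pool G, but none in pool H. A peak of fold 4.23 lay over the 3′ UTR (chr16:18581326-18582539). The printed Tbx1 stretch ends at a RefSeq start just before the unmarked second start.

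The mainly non-cardiac members had marks of at most 1187 bp in the replicated list, a range that also held Tbx1 with its 958 bp. Tbx4, a hindlimb and lung mesenchyme gene (chr11:85886422-85916097, plus strand), had 1 window peak, of 267 bp at chr11:85895032-85895298. That peak lay in an intron, 1467 bp before the third start, with folds of 4.35 in pool G, 4.05 in pool H and 4.03 in the replicated list. Tbx15, known in dermis and skeletal muscle (chr3:99240381-99354259, plus strand), was marked mainly at the second start: the peak at the second start, 13379 bp into the gene, had folds of 8.52 in pool G, 6.94 in pool H and 7.79 in the replicated list. A peak 393 bp past the first start had a fold of 3.79 in pool G and 3.46 in the replicated list and none in pool H, and the third start had none in any list. Tbx15's domain was 913 bp, 853 bp and 881 bp in pool G, pool H and the replicated list.

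Tbx6, a factor of the presomitic mesoderm (chr7:126781483-126785560, plus strand), had a domain of 1224 bp in pool G, 1060 bp in pool H and 1187 bp in the replicated list. Its fold was 10.38, 5.23 and 7.4 in these lists. The replicated peak, chr7:126780204-126781390, ended 93 bp before the start, covered no base of the gene and overlapped the 3′ end of the neighbour Ypel3. The window of Tbx6 also held the promoter of Ypel3, with a peak of fold 17.78, the highest in any member's window, and a smaller one of fold 5.18. Tbx21, which encodes T-bet, the factor of type 1 helper T cells and natural killer cells, had a peak of 1021 bp and fold 7.95 in pool G and of 661 bp and fold 4.24 in pool H. In the replicated list it was 784 bp with a fold of 6.06, over the start of the gene (chr11:97098071-97115331, minus strand). A further peak of fold 3.36 lay over a coding exon near the gene's end (chr11:97098639-97099246). Markers of T and natural killer cells were occupied in 0 of 9 genes in every list, Cd3e, Cd3g, Cd3d, Nkg7, Ncr1 and Gzmb among them, against 63.0% of all protein-coding genes in the replicated list. The part of these cells in the mark at Tbx21 was not tested.

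Ranked by width in the replicated list, the order was Tbx20, Tbx3, Tbx5, Tbx2, Tbx18, Tbx6, Tbx1, Tbx15 and Tbx21. The ranges spanned by the pools did not overlap between Tbx20 and Tbx3, Tbx5 and Tbx2, Tbx18 and Tbx6, or Tbx6 and Tbx1. They overlapped between the other neighbours in that order. Ranked by fold, the order was Tbx20, Tbx2, Tbx3, Tbx18, Tbx5, Tbx15, Tbx6, Tbx21 and Tbx1, and the pools' ranges overlapped for every pair of neighbours.

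**Figure D3:**
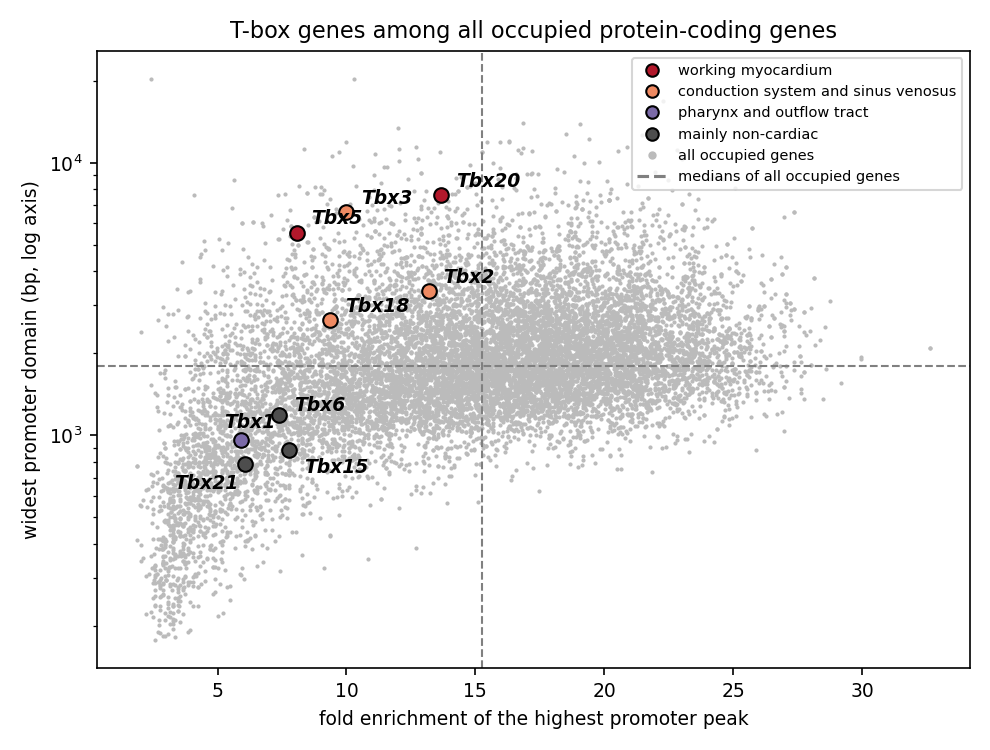
Fold enrichment of the highest promoter peak against the widest promoter domain (bp, log axis) in the replicated list, for the 9 occupied T-box genes (large points, coloured by role) and all 13657 occupied genes (grey); dashed lines are the medians of all occupied genes (15.26 and 1799 bp). Every T-box gene lies left of the median fold, and 5 of the 9 lie above the median width.

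Each of the 10 members had at least 1 peak from 10 kb upstream to the gene end, against 68.0% of protein-coding genes. The windows held 26 peaks in the replicated list and 27 in each other list. Of the 26, 13 lay at a start of the member, 4 only at a start of another gene and 9 at no annotated start. Their median folds were 7.79, 5.8 and 3.94. Of the 13, 5 also lay at a start of another gene. No share over all genes stands beside these classes, so they are not read as a trait of the T-box windows. Of the members' 22 annotated starts, 17 had a peak within 1000 bp in the replicated list, against 59.7% of all 54081 protein-coding transcript starts. The count was also 17 in pool G, against 60.0% of all starts, and 15 in pool H, against 57.9%.

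Every window peak of pool H overlapped a pool G peak (27 of 27, 95% exact interval 87.2% to 100%), against 98.0% of all pool H peaks. Of the 27 window peaks of pool G, 22 overlapped a pool H peak, which is 81.5% (61.9% to 93.7%), against 76.8% of all pool G peaks. These intervals cover counting error only. The 5 peaks of pool G alone were the weak Tbx5 peak in the gap, 2 in Tbx2, the peak at the third start of Tbx1 and the peak near the first start of Tbx15. All but the Tbx5 peak overlapped a peak of the replicated list. That list thus holds peaks without a match in pool H's own list. Fold was higher in pool G than in pool H at all 9 occupied members, and generally so: the median log2 ratio of pool G over pool H was 0.54 over the members and 0.51 over the 13245 genes occupied in both pools. Tbx6, with a ratio of 1.98, lay at percentile 95.9 of all genes and Tbx21, with 1.87, at percentile 93.7. The lowest ratio among the members was 1.23, at Tbx15. For width, Tbx5 had a ratio of 1.77, at percentile 94.8, and Tbx1 a ratio of 0.96, at percentile 5.6.

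CpG content around the starts did not follow the order of domain widths. A promoter was called CpG-dense when the 2000 bp around any start had a GC share of at least 0.5 and an observed over expected CpG of at least 0.6. Among all genes, 96.7% of those with a CpG-dense promoter were occupied (7051 of 7294), against 46.0% of the others (6606 of 14376). Tbx2, Tbx3, Tbx18, Tbx1, Tbx15 and Tbx21 had a CpG-dense start and were all occupied. Tbx5, Tbx20, Tbx6 and Tbx4 had none, and all but Tbx4 were occupied. For Tbx1 the only CpG-dense start, at chr16:18586969, had an observed over expected CpG of 0.9. Its peak had a fold of 4.52 in the replicated list and 5.87 in pool G, and pool H had none within 1000 bp. The widest domain and the highest fold of Tbx1 lay at another start, with an observed over expected CpG of 0.48. Of the members with domains among the widest 5%, the highest observed over expected ratio at a start was 0.5 for Tbx5. It was 0.57 for Tbx20 and 0.84 for Tbx3. Of occupied members with narrower domains, it was 0.94 for Tbx18, 0.9 for Tbx1 and 0.77 for Tbx2. For Tbx21, Tbx15 and Tbx6 it was 0.72, 0.66 and 0.3. The value of Tbx20 lies close to the bound of 0.6: with a bound of 0.5, chosen after seeing the data, Tbx20 counted as CpG-dense, while Tbx5, whose ratio before rounding lies just under that bound, did not. The 250 bases before the Tbx20 start, printed above, held more CG dinucleotides than the other 4 stretches. At Tbx15 the marked second start had a ratio of 0.66 and the weakly marked first start 0.5. At Tbx1 the second start, with no peak, had a ratio of 0.51 and the covered first start 0.48.

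In bins of 200 bp over each window, CpG-rich sequence by the same bounds made up 19.1% of the base pairs under peaks at Tbx5, 20.3% at Tbx20 and 24.3% at Tbx3. The median was 38.0% over 14723 protein-coding genes with covered bins, and 22.5% over the 683 genes with a domain among the widest 5%. The 3 widest members were thus near the median of other wide domains. The lowest share of the members was 14.1% at Tbx6, whose own domain is narrow and whose window also holds the Ypel3 peaks. The share was 52.9% at Tbx2, 60.4% at Tbx18, 71.9% at Tbx1, 60.0% at Tbx15 and 54.8% at Tbx21. The single short peak of Tbx4 lay wholly in CpG-rich sequence. Read the other way, peaks covered all 2000 bp of CpG-rich sequence in the Tbx20 window and 85.5% in the Tbx18 window. The Tbx5 window held 3000 bp of CpG-rich sequence, at percentile 91.0 of genes with at least 1000 bp, and that of Tbx20 was at percentile 75.1. Of the CpG-rich sequence, peaks covered 56.2% in the Tbx2 window, 54.5% in that of Tbx21 and 52.2% in that of Tbx5. They covered 46.2% in the Tbx1 window, 27.2% in that of Tbx15 and 14.8% in that of Tbx4. The Tbx3 share lay between those of Tbx5 and Tbx1. It was 81.7% at Tbx6, whose window held less than 1000 bp of CpG-rich sequence. The share thus did not follow the order of domain widths. The median over 9824 genes with at least 1000 bp of CpG-rich sequence was 66.7%, with quartiles of 42.9% and 85.7%.

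**Figure D4:**
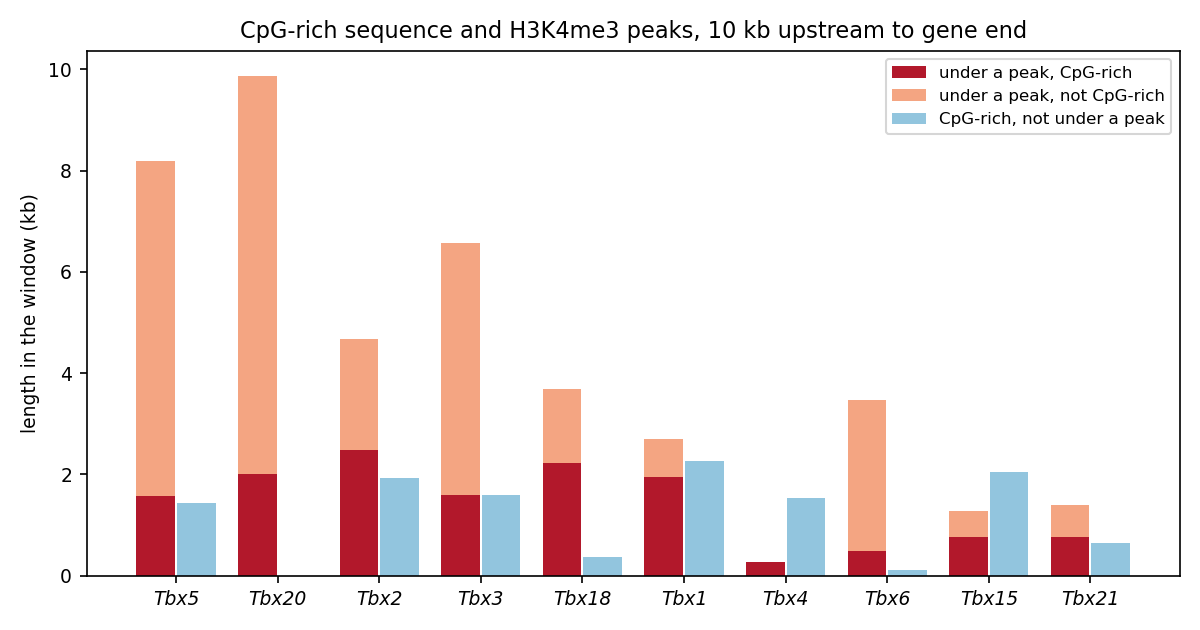
Length (kb) in each T-box window that lay under a replicated peak (left bars, split into CpG-rich and other sequence) and length of CpG-rich sequence outside peaks (right bars). At Tbx5, Tbx20, Tbx3 and Tbx6 most of the covered length was not CpG-rich (19.1%, 20.3%, 24.3% and 14.1% was), and Tbx20 had no CpG-rich sequence outside peaks.

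Of 7 other T-box family genes, 2 were occupied, against 63.0% of all genes. Mga, a widely used partner of Max, had a fold of 13.32 over 2218 bp, and Eomes, a factor of early mesoderm and lymphocytes, a fold of 7.12 over 2043 bp. T, Tbr1, Tbx10, Tbx19 and Tbx22 had no promoter peak. Tbr1, a cortical neuron factor, had a peak of fold 5.8 over a coding exon, and the Tbx10 window held a peak at the start of its neighbour Acy3.

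The partners of cardiac T-box factors were occupied in 10 of 10 genes, against 63.0% of all protein-coding genes, and 5 of these had a domain among the widest 5%, against 5.0% of all occupied genes. The highest folds were those of Tead1, a Hippo pathway factor, with 22.34, and Hand2, a ventricular factor, with 15.95. Of 12 targets described for cardiac T-box factors, 10 were occupied (83.3%) and 5 had a domain among the widest 5%. The highest folds were 21.21 at Gja5, a gap junction protein of atria and conduction fibres, whose domain also lay at the promoter of Gpr89, and 18.53 at Atp2a2, which pumps calcium back into the sarcoplasmic reticulum. Nppa, the natriuretic peptide gene, and Bmp10, an atrial growth factor, had no promoter peak. Of 6 targets described for non-cardiac members, 2 were occupied (33.3%). These were Dll1, a Notch ligand with a fold of 15.54, and Mesp2, a somite gene with 5.48. Msgn1, a presomitic gene, and the T-bet targets Ifng, Cxcr3 and Il12rb2 had no promoter peak.

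Marker genes of cell types of the heart are read against the same 63.0% of all protein-coding genes with a promoter peak. Cardiomyocyte markers were occupied in 8 of 8 genes, with folds of 11.07 at Ryr2, the calcium release channel, and 10.87 at Myl3, a myosin light chain. Of these, 5 had a domain among the widest 5%, against 5.0% of all occupied genes, and the median width was 6373.5 bp. Conduction markers were occupied in 10 of 11 genes (90.9%) and in none among the widest 5%, with a median width of 1270.5 bp. Their highest folds were 12.01 at Gjc1, a gap junction protein of the nodes, and 11.26 at Hcn4, the pacemaker channel; Cntn2 had no promoter peak. Of 8 epicardial and mesothelial markers 3 were occupied (37.5%), with folds of 10.14 at Wt1 and 7.98 at Tcf21. Upk3b, Msln, Upk1b, Lrrn4 and Krt19 had no promoter peak. The median width was 1964 bp, with none among the widest 5% in the replicated list and 1 in pool G. Fibroblast markers were occupied in 6 of 7 genes (85.7%), led by Pdgfra with 8.49, and Postn had none. Their median width was 2910.5 bp, with 1 among the widest 5% in the replicated list and 4 in pool G. Tcf21 was counted in both this list and the epicardial list, Ryr2 among both cardiac targets and cardiomyocyte markers, and Isl1 among both partners and conduction markers. Limb, skin and lung mesenchyme genes, where Tbx4 and Tbx15 are known to act, were occupied in 6 of 7 (85.7%). They were led by Foxf1 with 15.79 and Prrx1 with 11.93. None was among the widest 5%, and the median width was 1525.5 bp. Pitx1 had no promoter peak in the replicated list but had one in pool G. Of these mesenchyme genes, Shox2 was also a conduction marker and Fgf10 also a cardiac target. The domain of Shox2 also lay at the promoter of Rsrc1. What share these cell types had in the members' marks was not tested.

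The genes most like Tbx20 and Tbx5 in both width and fold over the 2 pools' lists were sought among 13245 genes occupied in both, by the root mean square difference of log2 values. For Tbx20 these were Rgcc, a cell cycle regulator, at 0.122, Meis2, a homeobox factor, at 0.133, and Gja1, the main gap junction protein of ventricular muscle, at 0.134. For Tbx5 they were Cavin2, a coat protein of caveolae, at 0.202, Lyl1, a factor of blood and endothelium, at 0.235, and Sparc, a matrix glycoprotein, at 0.236. With 4 values a gene, this is a description.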

How the data were processed

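H3K4me3 ChIP-seq of 4 libraries from 2 pools of mouse heart was analysed from 4 deposited narrowPeak lists on mm10, per the labels. Which program called the peaks, and at what threshold, is not given in the sources used here. Each peak's signal value is taken as a ratio, its fold enrichment over control, as the authors deposited it; this reading is an assumption. The q-value of each peak was deposited by the authors as −log10 q. Technical replicates were pooled in the lists, so a pool gives 1 value with no SD, and read depth is unknown. Of the 24996 replicated peaks, 24037 are identical in the pseudoreplicated list, so the lists are not independent. Hybrid reads are set beside a C57BL/6J reference.

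Promoters came from protein-coding transcript starts of the GENCODE M21 annotation on the same build, outside chromosome Y and the mitochondrion. Each occupied gene was given its highest promoter peak and its widest promoter domain. The window ran from 10 kb upstream to the gene end. Peak overlaps and joins were tested on simulated data against bedtools 2.31.1 and gave the same intervals. Python 3.11.15, pandas 2.3.3, numpy 2.4.6 and scipy 1.17.1 were used. All 10 members were named, with the other family genes, genes whose start lay at a window peak, the 2 highest folds and up to 6 unoccupied genes of each list, and the 3 nearest genes to Tbx5 and Tbx20. Genes counted in 2 lists, and a gene that shared a domain with a listed gene, were named as well. The members and lists were chosen with earlier results of these data known. The closing section gives the effect of other lists, promoter sizes, gaps, windows, q bounds and CpG bounds.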

Additional observations from a re-analysis of the deposited data

How the results depend on the processing

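The 9 members with a promoter peak stayed at 9 under 6 of the 7 other settings tried; with promoters of 2000 bp on either side Tbx4 was added, which made 10. The 3 members among the widest 5% stayed at 3 under 9 of 11 settings, with 4 when gaps of up to 3000 bp were joined (Tbx2 was added) and 2 among the widest 2%. The windows held 21 to 28 peaks, the fewest with a −log10 q of at least 5. The share of protein-coding genes with a promoter peak was 63.0%, but 61.3% in pool H's own list and 61.4% with a −log10 q of at least 5. The share of pool H window peaks that overlapped a pool G peak was 66.7% when 50% of both peaks had to overlap, against 80.1% of all pool H peaks. The 9 pool H peaks that failed included the 5 at Tbx5. Those 5, and further peaks at Tbx20 (1262 bp), Tbx3 (401 bp) and Tbx21 (205 bp), lay within longer pool G peaks. The last was a short peak at Tbx4 (232 bp) that reached past the pool G peak. The cause of the lower share was not tested. Joining gaps of up to 3000 bp gave 14099 bp at Tbx20, 9460 bp at Tbx5 and 8419 bp at Tbx2, and joining none gave 1217 bp at Tbx2. CpG-rich sequence under peaks moved at 13 of 20 member values with the CpG bound, at Tbx5 to 20.0% with a bound of 0.7. With bounds of 0.5 and 0.7, chosen after seeing the data, 7 and 5 members had a CpG-dense start in place of 6. No paired analysis was possible because the replicate numbers belong to technical libraries that the peak lists pool. Leaving out a pool means using the other pool's list, and without reads no depth or library could be compared.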

Other observations

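Tbx3 and Tbx5 lie side by side on chromosome 5 with 147943 bp between them, and Tbx2 and Tbx4 on chromosome 11 with 44473 bp between them. The stretch between Tbx3 and Tbx5, both among the widest 5%, held 3 peaks in the replicated list, 2 of them outside the genes' windows. The stretch between Tbx2, with 7 window peaks, and Tbx4, with 1, also held 3, 2 of them outside the windows. In pool H, 3 peaks lay between Tbx3 and Tbx5 and 2 between Tbx2 and Tbx4.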
